A study of Mus musculus with 11 samples.

Results

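The 10 genes described here mark 2 steps of spermatogonial life in the mouse testis. The 6 genes of undifferentiated spermatogonia were Gfra1, Id4, Zbtb16, Lin28a, Nanos3 and Uchl1, and the 4 genes of differentiating spermatogonia were Kit, Stra8, Sohlh1 and Dmrt1. They were chosen by name as known markers, and all 10 were among the 24411 genes of the count table. Whole decapsulated testes of mice aged 20 weeks were profiled by polyA RNA sequencing in 11 samples. These were 4 wild-type C57Bl/6J mice (WT), 4 Irp1-/- mice (labelled Irp1_KO, replicates 1, 2, 6 and 7), which lack iron regulatory protein 1 in every cell through a global knockout of Aco1, and 3 Irp2-/- mice (labelled Irp2_KO), which lack iron regulatory protein 2 through a global knockout of Ireb2. No sample was treated. By the study's methods, controls were littermates from crosses of Irp1 heterozygotes. How the Irp2-/- mice relate to these WT mice is not given in the sources used here, so a difference of colony and of genotype cannot be told apart in the comparisons of Irp2-/- with the other genotypes.

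Spermatogonia are the diploid germ cells at the base of the seminiferous tubule. Undifferentiated spermatogonia include the stem cells, which are held in that state by GDNF from neighbouring somatic cells, acting through the receptor GFRA1 and its partner RET. Retinoic acid then drives the irreversible step to differentiating spermatogonia, which switch on KIT, the receptor for stem cell factor, and STRA8, and later enter meiosis. In an adult testis these cells are far outnumbered by spermatocytes and spermatids, so that their transcripts form a small share of the RNA. In such bulk RNA, fewer cells of a type and less RNA per cell cannot be told apart. Iron regulatory proteins bind mRNA and set iron uptake and storage, and the study was concerned with spermatogenesis in mice without one of them.

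Sequence upstream of an annotated start was matched to RefSeq (GRCm38.p6, the build called mm10) for 8 of the 10 genes. One gene of each class is shown, Id4 and Sohlh1, from the 3 genes whose 250 bases before the start overlap no annotated exon. Nanos3, the third of these, was too low to test and its window, which held 2 E-boxes, is not shown. Sohlh1 encodes a basic helix-loop-helix factor, a class that binds E-boxes (CANNTG), and its window on the minus strand, chr2:25847249-25847498, is printed with the 5 E-boxes in capitals. Id4 encodes an inhibitor that pairs with such factors and keeps them from DNA. Its window on the plus strand, chr13:48260866-48261115, held no E-box and is printed with 5 GC boxes (GGGCGG, here read on the other strand as CCGCCC) in capitals.
Sohlh1: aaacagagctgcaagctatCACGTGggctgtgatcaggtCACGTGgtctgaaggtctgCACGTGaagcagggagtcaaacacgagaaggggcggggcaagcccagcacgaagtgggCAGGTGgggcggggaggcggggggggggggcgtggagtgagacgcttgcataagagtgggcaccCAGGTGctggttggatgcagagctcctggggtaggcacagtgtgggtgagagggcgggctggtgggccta
Id4: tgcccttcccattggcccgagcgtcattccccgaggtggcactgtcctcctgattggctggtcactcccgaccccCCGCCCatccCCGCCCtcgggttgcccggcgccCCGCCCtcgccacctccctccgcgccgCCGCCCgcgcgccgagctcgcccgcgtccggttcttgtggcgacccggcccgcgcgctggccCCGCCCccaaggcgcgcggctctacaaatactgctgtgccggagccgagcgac

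Both strands were searched and overlapping matches were counted. An E-box was present in 66.2% of 32851 annotated windows of 250 bases, and a GC box in 32.7%. The palindromic E-box CACGTG, held 3 times by Sohlh1, was present in 6.02% of them, and in none of the windows of the other members matched. E-boxes did not follow the 2 classes, since Gfra1 held 3 while Lin28a, Uchl1, Kit and Stra8 held 0. The Sohlh1 window also held 3 GC boxes, which are not in capitals. The retinoic acid receptor motif AGGTCA, present in 14.0% of windows, was held 2 times by Stra8 and 1 time by Sohlh1. These matches describe the sequence and were not tested for binding.

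Sequencing depth was 15902473 to 22451417 counted reads per sample, with ranges that overlapped between the genotypes. Counts were normalised by the trimmed mean of M-values (TMM) and are given as CPM, the count of a gene scaled to the size of its library. Transcripts of the targeted genes followed the labels. Ireb2 was at 62.0, 61.8 and 62.8 CPM in Irp2-/- testes against 131 to 144 CPM in WT, and Aco1 was at 7.93 to 9.13 CPM in Irp1-/- testes against 9.80 to 12.9 CPM in WT. Both fell in their own knockout (log2 fold change -1.16, adjusted p = 2.84e-13 for Ireb2, and -0.45, adjusted p = 0.0158 for Aco1). Transcript thus remained from each locus, and the protein was not measured here. Genes of epididymis, the tissue nearest to the testis, summed to at most 0.314 CPM in any sample over the 6 listed. Each of the 4 lists of 8 markers of later germ cells, from early spermatocytes to elongating spermatids, had 0 genes called by edgeR in each comparison, with 0 to 2 genes a list at an unadjusted p under 0.05. The summed level of the earliest of these lists, preleptotene to zygotene spermatocytes, was 1060 to 1078 CPM in Irp1-/- against 1097 to 1118 CPM in WT and 1089 to 1137 CPM in Irp2-/- samples. In Irp1-/- against WT 6 of its 8 markers were negative and 3 of 8 had groups without overlap, beside 6.63% of all genes. From the earliest list to the latest, 6, 7, 1 and 4 markers were negative in Irp1-/- against WT, and 4, 8, 7 and 8 in Irp2-/- against WT. In Irp2-/- against WT 1 marker of each list was without overlap, beside 9.23% of all genes. The elongating spermatid sum was 18340 to 22060 CPM in Irp2-/-, 20600 to 23720 CPM in Irp1-/- and 21600 to 22490 CPM in WT samples. The part of these cells in the members' values was not tested. All 9 members that passed the filter on low counts had at least 30 counts in every sample. Nothing in the labels states that replicate numbers mark litters. The p-values below weigh a difference between genotypes against the variation between samples, which edgeR estimates with information shared across genes.

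Per kilobase of the longest coding transcript, the WT levels of the 10 genes spanned from 29.9 ± 2.37 CPM per kb for Uchl1 to 0.478 ± 0.242 CPM per kb for Nanos3 (mean ± SD, n = 4). Between them came Dmrt1 (10.04 ± 0.914 CPM per kb), Id4 (9.68 ± 0.468 CPM per kb), Stra8 (5.99 ± 0.687 CPM per kb) and Kit (3.90 ± 0.972 CPM per kb). Lower still were Gfra1 (2.40 ± 0.278 CPM per kb), Sohlh1 (2.01 ± 0.194 CPM per kb), Lin28a (1.25 ± 0.212 CPM per kb) and Zbtb16 (0.875 ± 0.163 CPM per kb). The WT samples of neighbours in this order overlapped for Dmrt1 and Id4, for Gfra1 and Sohlh1, for Lin28a and Zbtb16, and for Zbtb16 and Nanos3, so those pairs were not separated. The other neighbours did not overlap in WT. The order was the same in Irp1-/- testes, and in Irp2-/- testes Id4 lay above Dmrt1 and Sohlh1 above Gfra1, both pairs that already overlapped in WT. Thus neither class lay wholly above the other, and the low end was held by RNA-binding and transcription factors of undifferentiated cells.

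**Figure D1:**
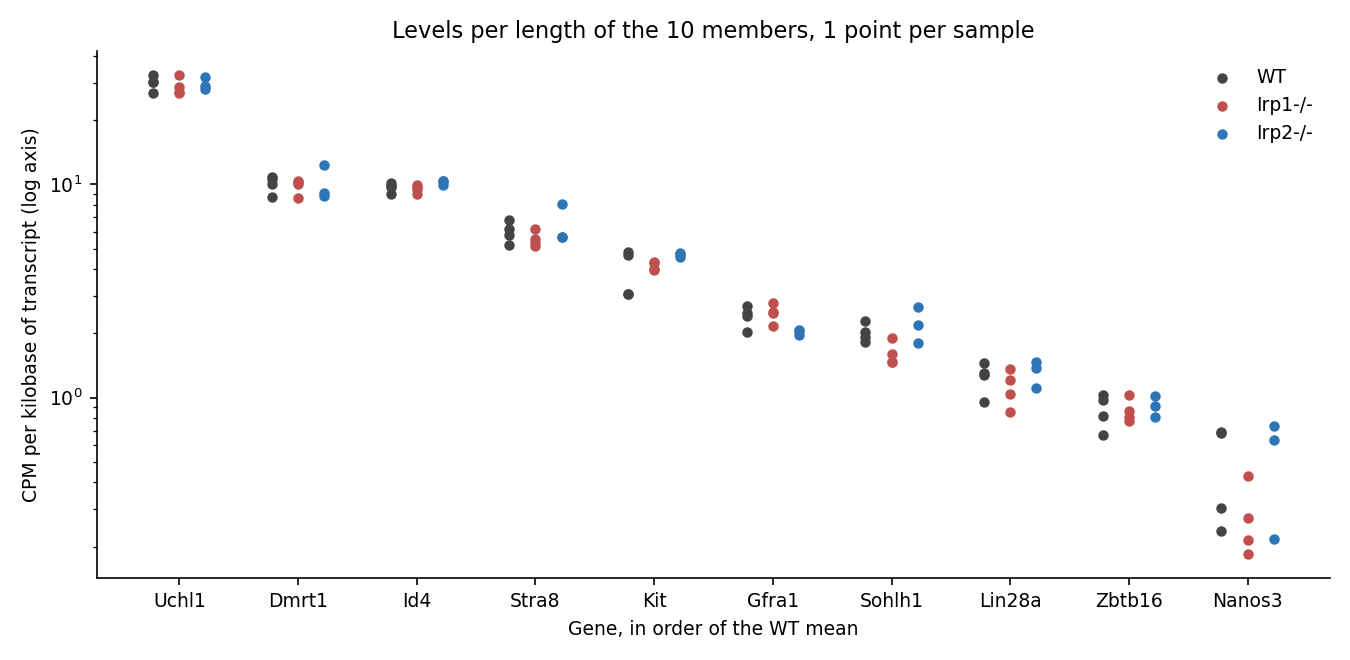
Level of each of the 10 genes in CPM per kilobase of its longest coding transcript (log axis), with 1 point per sample coloured by genotype and genes ordered by the WT mean. Uchl1 lay highest and Nanos3 lowest in each genotype.

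None of the 9 tested members passed an adjusted p of 0.05 in any of the 3 comparisons (edgeR quasi-likelihood test, Benjamini-Hochberg adjustment over all genes tested). In Irp1-/- against WT testes 0 of 9 were called, against 1.02% of the 16002 genes tested, and their adjusted p ran from 0.489 to 0.989. At an unadjusted p under 0.05 it was also 0 of 9, beside 12.1% of all genes, and 0 of 9 had genotype groups that did not overlap, beside 6.63% of all genes. In Irp2-/- against WT testes 0 of 9 were called (1.21% of 16154 genes), 1 of 9 had an unadjusted p under 0.05 (9.42% of genes) and 0 of 9 were without overlap (9.23%). In Irp1-/- against Irp2-/- testes 0 of 9 were called (4.69% of 16281 genes), 3 of 9 had an unadjusted p under 0.05 (16.3%) and 2 of 9 were without overlap (15.2%). With DESeq2 on the same genes the count of members called was likewise 0 in each comparison.

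**Figure D2:**
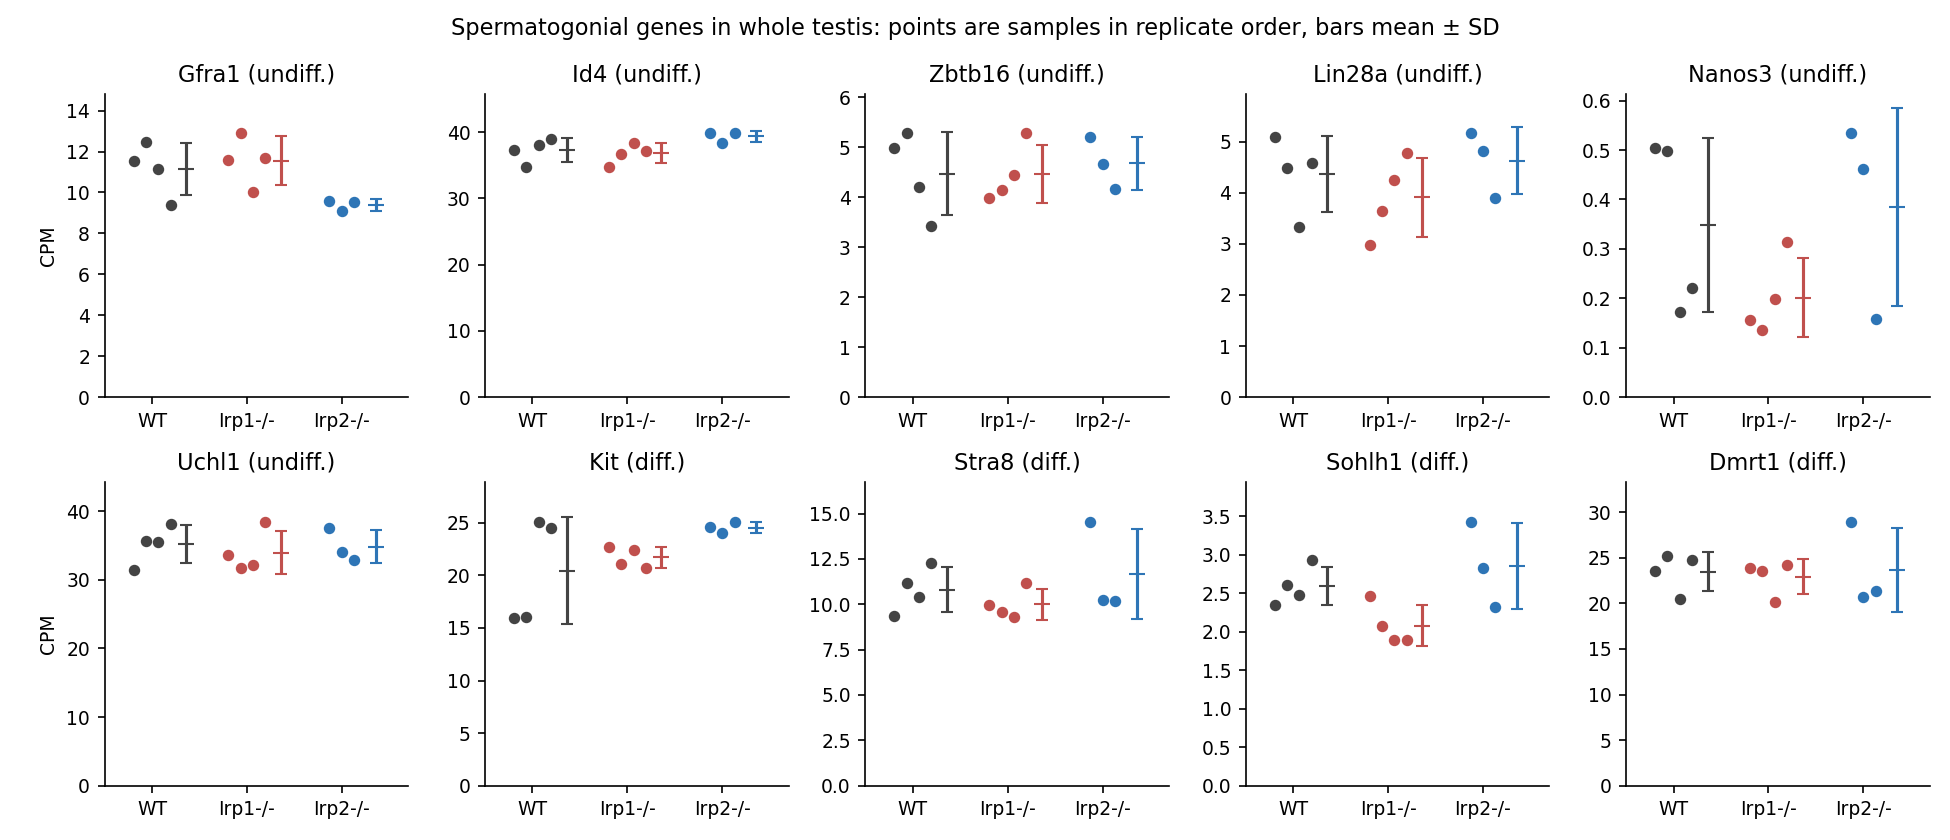
CPM of each of the 10 genes in every sample, with points in replicate order within a genotype and bars for mean ± SD (n = 4 WT, 4 Irp1-/-, 3 Irp2-/-). Genotypes overlapped for each gene against WT, and the 4 WT points of Kit lay in 2 pairs, near 16 and near 25 CPM.

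The intervals say how large a change these samples could still hide. Across the 9 members the 95% confidence intervals of the log2 fold change lay between -0.67 and 0.48 in Irp1-/- against WT, between -0.46 and 0.72 in Irp2-/- against WT, and between -0.85 and 0.51 in Irp1-/- against Irp2-/-. The interval was narrowest for Id4, from -8.49% to 6.40% in Irp1-/- against WT, and a doubling or halving lay outside the interval of every tested member. The median log2 fold change of the 9 was -0.037 in Irp1-/- and 0.08 in Irp2-/- against WT, and -0.10 between the knockouts, while that of all genes tested lay within 0.003 of 0.

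**Figure D3:**
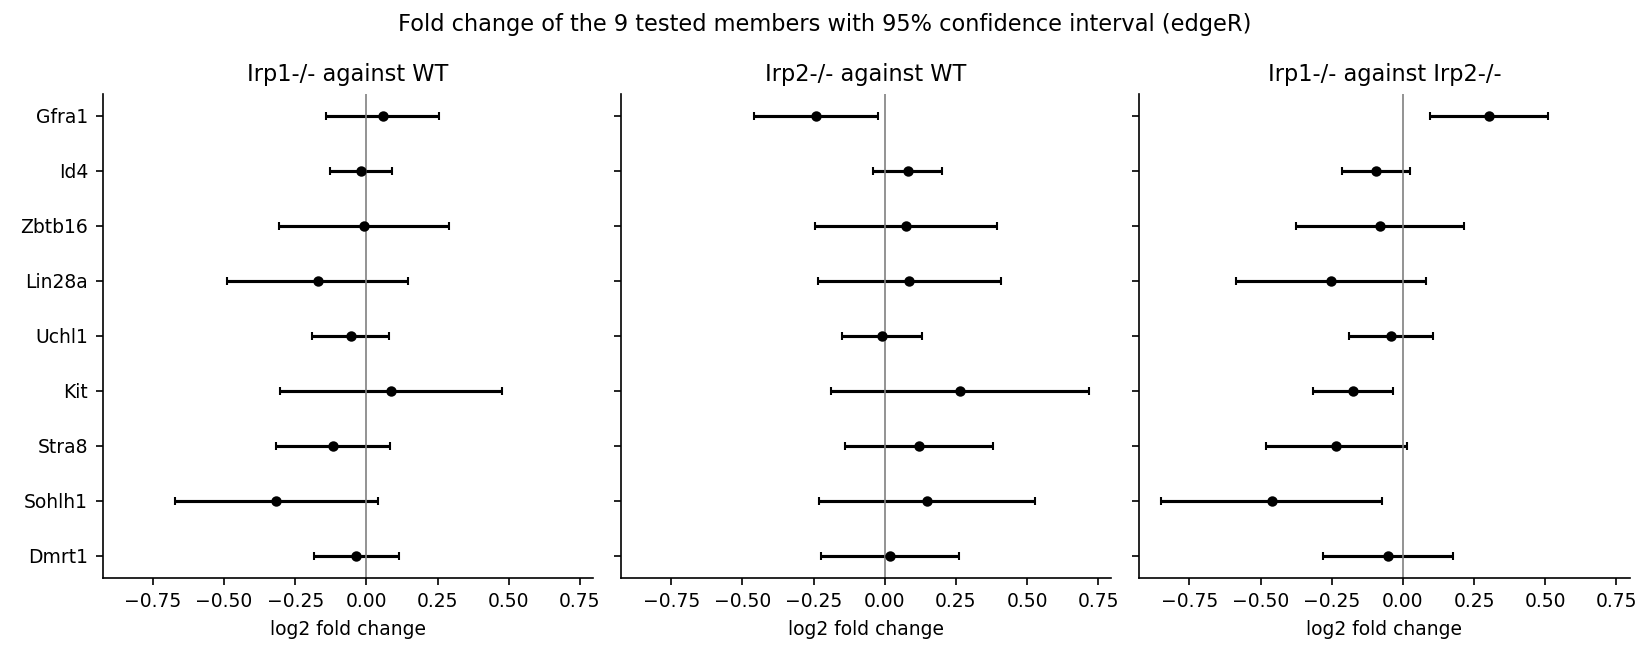
Log2 fold change (point) and 95% confidence interval (bar) of the 9 tested genes in the 3 comparisons, from edgeR. The intervals of Gfra1, Kit and Sohlh1 exclude 0 in Irp1-/- against Irp2-/-, and that of Gfra1 also in Irp2-/- against WT, before any adjustment for the number of genes.

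Among the undifferentiated genes, Gfra1, the GDNF co-receptor on stem cells (chr19:58235581-58455946), came nearest to the threshold. It stood at 11.5, 12.5, 11.2 and 9.40 CPM in WT replicates 1 to 4, at 11.6, 12.9, 10.03 and 11.7 CPM in Irp1-/- replicates 1, 2, 6 and 7, and at 9.57, 9.07 and 9.52 CPM in Irp2-/- replicates 1 to 3. All 3 Irp2-/- samples lay below all 4 Irp1-/- samples, while WT replicate 4 lay among the Irp2-/- values. Gfra1 was 23.3% higher in Irp1-/- than in Irp2-/- testes (95% interval 6.73% to 42.4%, log2 0.30 ± 0.09995 SE, adjusted p = 0.0956). Without Irp1-/- replicate 6, the lowest of its genotype, the same contrast passed the threshold (log2 0.36, adjusted p = 0.0402). That sample alone carries the letter R rather than L in its column name, whose meaning is not stated. Against WT, Gfra1 was 15.4% lower in Irp2-/- testes (interval -27.3% to -1.70%, adjusted p = 0.433) and 4% higher in Irp1-/- testes (interval -9.41% to 19.4%, adjusted p = 0.88).

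Id4, the inhibitor of DNA binding used to mark stem cells (chr13:48261116-48266028), was at 37.3, 34.7, 38.0 and 38.9 CPM in WT, at 34.8, 36.7, 38.4 and 37.2 CPM in Irp1-/- and at 39.8, 38.3 and 39.8 CPM in Irp2-/- testes. All samples lay within a span of 34.7 to 39.8 CPM, and the genotypes overlapped. The change was -1.33% in Irp1-/- (interval -8.49% to 6.40%, adjusted p = 0.93) and 5.72% in Irp2-/- testes (interval -2.80% to 15.0%, adjusted p = 0.766) against WT.

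Uchl1, a ubiquitin hydrolase abundant in spermatogonia (chr5:66676121-66687234), was at 31.4, 35.6, 35.5 and 38.2 CPM in WT, at 33.6, 31.7, 32.1 and 38.5 CPM in Irp1-/- and at 37.5, 34.0 and 32.9 CPM in Irp2-/- testes. The genotypes did not separate. Against WT it differed by -3.79% in Irp1-/- (interval -12.3% to 5.57%, adjusted p = 0.8) and by -0.69% in Irp2-/- testes (interval -9.95% to 9.54%, adjusted p = 0.986).

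Zbtb16, which encodes the stem cell maintenance factor PLZF (chr9:48651797-48836225), was at 4.98, 5.28, 4.20 and 3.43 CPM in WT, at 3.98, 4.14, 4.44 and 5.28 CPM in Irp1-/- and at 5.21, 4.67 and 4.16 CPM in Irp2-/- testes. Its groups overlapped throughout. The fold change was -0.62% in Irp1-/- (interval -19.1% to 22.1%, adjusted p = 0.989) and 5.30% in Irp2-/- testes (interval -15.6% to 31.4%, adjusted p = 0.954) against WT. Zbtb16 lies 6.03 Mb from Ireb2, so an effect of DNA linked to the Ireb2 knockout allele and one of the genotype cannot be told apart.

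Lin28a, an RNA-binding protein that blocks let-7 maturation (chr4:134003330-134019196), was at 5.09, 4.47, 3.33 and 4.59 CPM in WT, at 2.98, 3.64, 4.24 and 4.78 CPM in Irp1-/- and at 5.17, 4.82 and 3.89 CPM in Irp2-/- testes. It was -11.2% in Irp1-/- (interval -28.8% to 10.8%, adjusted p = 0.721) and 6.19% in Irp2-/- testes (interval -15.0% to 32.7%, adjusted p = 0.945) against WT, with overlapping samples. The difference of Irp1-/- from WT, -0.17 on the log2 scale, was -0.063 without Irp1-/- replicate 1, -0.086 without WT replicate 1, -0.27 without Irp1-/- replicate 7 and -0.28 without WT replicate 3. Lin28a lies on the chromosome of Aco1, 93.8 Mb away.

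Nanos3, a germ cell RNA-binding protein (chr8:84173733-84176552), was at the limit of detection. Its counts were 9, 8, 3 and 4 in WT, 3, 3, 4 and 5 in Irp1-/- and 12, 9 and 3 in Irp2-/- samples, and it was removed by the filter on low counts in each comparison. Without the filter its log2 fold change was -0.80 ± 0.543 in Irp1-/- (SE, adjusted p = 0.657) and 0.17 ± 0.509 in Irp2-/- testes (adjusted p = 0.962) against WT, and a difference was not detectable at this depth.

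Of the differentiating genes, Kit (chr5:75574987-75656722) varied most among WT mice. It was at 15.95, 16.1, 25.1 and 24.6 CPM in WT, at 22.7, 21.04, 22.5 and 20.7 CPM in Irp1-/- and at 24.6, 24.0 and 25.0 CPM in Irp2-/- testes. WT replicates 1 and 2 lay below every other sample, and WT replicates 3 and 4 lay with the Irp2-/- samples. The variance of Kit in WT was 21.9 times that expected from counting error alone, against 0.871 times in Irp1-/- and 0.217 times in Irp2-/- testes. Its intervals against WT were the widest of the 9 members in both knockouts, at 6.13% (-19.0% to 39.1%, adjusted p = 0.898) and 20.1% (-12.4% to 64.5%, adjusted p = 0.791). Between the knockouts, whose samples did not overlap, Kit was 11.4% lower in Irp1-/- testes (log2 -0.17 ± 0.0671 SE, interval -19.6% to -2.41%, adjusted p = 0.169).

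Kit is also expressed by Leydig cells, the steroid-producing cells between the tubules, and a shortened Kit transcript is made in spermatids. Counts per gene do not separate these sources. The summed level of 8 Leydig markers was 746, 722, 1017 and 961 CPM in WT replicates 1 to 4, and thus low in the same 2 WT samples as Kit. It was 967 to 1165 CPM in Irp1-/- and 750 to 967 CPM in Irp2-/- samples. In Irp1-/- against WT all 8 markers had positive fold changes and 1, Hsd17b3, was called (beside 1.02% of all genes), and against Irp2-/- all 8 were again positive and 3 were called (Hsd3b1, Insl3 and Nr5a1, beside 4.69%), the opposite sign to that of Kit between the knockouts. In Irp2-/- testes, replicate 2 had the lowest Leydig sum, 750 CPM, with Kit at 24.0 CPM. Low sums in WT replicates 1 and 2 were not particular to the Leydig markers. In WT replicates 1 to 4, 10 Sertoli cell markers summed to 986, 983, 1051 and 1062 CPM. The 14 genes of retinoic acid signalling described below summed to 402, 409, 491 and 444 CPM. The split in that sum lay mostly in 1 gene, Aldh1a1, at 135.3, 128.8, 207.7 and 169.5 CPM. Aldh1a2, the next highest, was at 119.6, 120.4, 123.2 and 117.9 CPM. Macrophage markers did not follow this split, at 57.7, 71.5, 61.5 and 57.9 CPM. The part of Leydig cells in the Kit values was not tested.

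**Figure D4:**
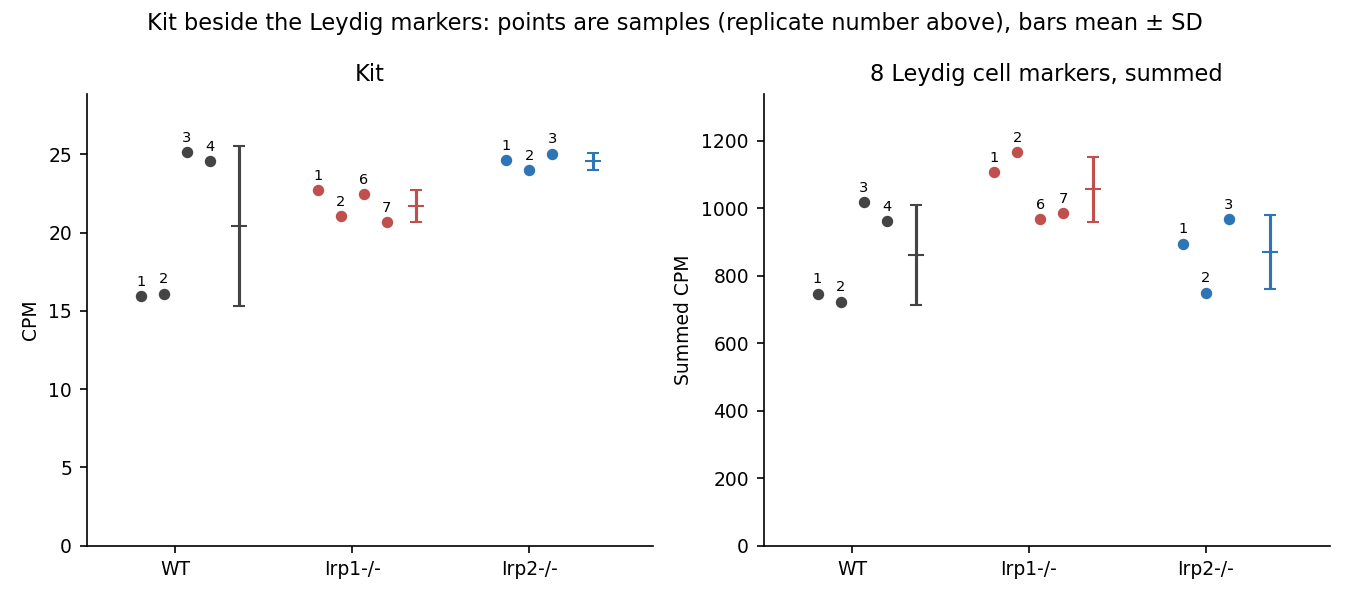
Kit in CPM (left) and the summed CPM of 8 Leydig cell markers (right) in every sample, with the replicate number above each point and bars for mean ± SD. WT replicates 1 and 2 were the lowest for Kit, and had the lowest Leydig sums.

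Stra8, the retinoic acid-induced gene needed for entry into meiosis (chr6:34920163-34939344), was at 9.35, 11.2, 10.4 and 12.3 CPM in WT, at 9.94, 9.58, 9.28 and 11.2 CPM in Irp1-/- and at 14.6, 10.3 and 10.2 CPM in Irp2-/- testes. Irp2-/- replicate 1 lay above every other sample. Its change was -7.81% in Irp1-/- (interval -19.7% to 5.80%, adjusted p = 0.683) and 8.73% in Irp2-/- testes (interval -9.18% to 30.2%, adjusted p = 0.872) against WT.

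Sohlh1, the factor that drives the step out of the undifferentiated state (chr2:25842995-25847248), was at 2.35, 2.61, 2.47 and 2.93 CPM in WT, at 2.46, 2.07, 1.90 and 1.89 CPM in Irp1-/- and at 3.43, 2.82 and 2.31 CPM in Irp2-/- testes. Irp1-/- replicate 1 lay within the WT range, and the other 3 Irp1-/- samples lay below every WT and Irp2-/- sample. Sohlh1 was 27.4% lower in Irp1-/- than in Irp2-/- testes (log2 -0.46 ± 0.186 SE, interval -44.5% to -4.97%, adjusted p = 0.2), and without Irp2-/- replicate 1 the log2 difference was -0.30. Against WT it differed by -19.7% in Irp1-/- (interval -37.3% to 2.82%, unadjusted p = 0.0798, adjusted p = 0.489) and by 10.9% in Irp2-/- testes (interval -14.7% to 44.1%, adjusted p = 0.902). It is the lowest in counts of the tested differentiating genes, and none of its contrasts passed the threshold.

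Dmrt1, a transcription factor of spermatogonia that is also made by Sertoli cells (chr19:25505618-25604328), was at 23.6, 25.2, 20.5 and 24.7 CPM in WT, at 23.9, 23.5, 20.1 and 24.2 CPM in Irp1-/- and at 29.0, 20.7 and 21.4 CPM in Irp2-/- testes. Irp2-/- replicate 1 again lay above every other sample. The change was -2.50% in Irp1-/- (interval -12.1% to 8.14%, adjusted p = 0.898) and 1.36% in Irp2-/- testes (interval -14.4% to 20.0%, adjusted p = 0.985) against WT. Summed over 10 Sertoli markers, the level was 983 to 1062 CPM in WT, 1097 to 1228 CPM in Irp1-/- and 987 to 1129 CPM in Irp2-/- samples, with 9 of 10 markers positive and 1 called in Irp1-/- against WT (Clu, higher, beside 1.02% of all genes), and 7 of 10 positive and 3 called in Irp1-/- against Irp2-/- (Amh, Fshr and Rhox5, higher, beside 4.69%). The part of Sertoli cells in the Dmrt1 values was not tested.

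In the Irp2-/- group, replicate 1 had the highest CPM of its genotype for 9 of the 10 genes, the exception being Kit, where replicate 3 was highest. The share of all genes highest in replicate 1 was not taken. Some members also varied together (r = 0.83 for Uchl1 and Stra8, 0.75 for Stra8 and Dmrt1), so the 9 are not separate observations. Without Irp2-/- replicate 1, the log2 fold change of Irp2-/- against WT turned from 0.12 to -0.076 for Stra8, from 0.15 to -0.010 for Sohlh1 and from 0.020 to -0.16 for Dmrt1. In Irp1-/- testes replicate 7 was highest for 6 of the 10 genes.

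The balance of the 2 classes was taken per sample as the mean log2 CPM of the 6 undifferentiated genes minus that of the 4 differentiating genes, as a description with no test. It was -0.32, -0.43, -0.79 and -0.92 in WT replicates 1 to 4, -0.87, -0.70, -0.56 and -0.45 in Irp1-/- replicates 1, 2, 6 and 7, and -0.80, -0.59 and -0.80 in Irp2-/- replicates 1 to 3. The WT samples spanned the whole range, and both knockouts lay inside it. Nanos3, with 3 to 12 counts, weighs as much in this mean as each of the other genes. Without it the balance was 0.42, 0.31, 0.11 and -0.053 in WT, 0.035 to 0.39 in Irp1-/- and -0.069 to 0.15 in Irp2-/- samples, so that Irp2-/- replicate 1 lay just below the WT range, and the sign of the difference between Irp1-/- and WT turned from -0.031 to 0.048. The summed CPM of the 6 genes, in which Id4 and Uchl1 weigh most, was 90.8, 93.1, 92.3 and 94.7 in WT replicates 1 to 4 and did not follow the balance. Group means were -0.61 ± 0.284 in WT, -0.65 ± 0.180 in Irp1-/- and -0.73 ± 0.120 in Irp2-/- testes (SD, n = 4, 4 and 3), so the means differed by less than the spread among WT mice. Of the 6 undifferentiated genes, Gfra1, Zbtb16 and Nanos3 had their 2 highest WT values in replicates 1 and 2, the samples low in Kit, whereas Uchl1 was lowest in WT replicate 1, Id4 was lowest in WT replicate 2, and both were highest in WT replicate 4.

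Across the 11 samples the members did not move as 2 blocks. The highest pairwise Pearson r of log2 CPM joined the classes, at 0.83 for Uchl1 and Stra8, followed by 0.81 for Lin28a and Nanos3, while the lowest was -0.80 for Gfra1 and Id4, both markers of undifferentiated cells. Genes most like the mean of the undifferentiated members were Klhdc2 (r = 0.97), Hagh (r = 0.95) and Mesp1 (r = 0.94), and those most like the differentiating mean were Fdps (r = 0.93), Nup210 (r = 0.93) and Tapbp (r = 0.92). These r values were picked as the highest of 16397 genes over 11 samples that share genotype groups and normalisation, and they are descriptions. The undifferentiated mean includes Nanos3, with 3 to 12 counts per sample. In WT replicates 1 to 4 that mean was 2.96, 2.97, 2.66 and 2.71 log2 CPM, high in the same samples as Nanos3 (0.504, 0.497, 0.172 and 0.221 CPM). Likeness to the undifferentiated mean without Nanos3 was not taken.

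The surrounding pathway was described with 103 further genes in 6 lists, of which 102 were in the table. In Irp1-/- against WT testes 0 of 87 tested were called (0 by DESeq2), in Irp2-/- against WT 1 of 88 was called, and in Irp1-/- against Irp2-/- 4 of 90 (3 by DESeq2). These counts of called genes stand beside the 1.02%, 1.21% and 4.69% of all genes given above. At an unadjusted p under 0.05 the counts were 11, 9 and 19, beside 12.1%, 9.42% and 16.3% of all genes. Groups did not overlap for 2, 8 and 15 genes, beside 6.63%, 9.23% and 15.2% of all genes. The median log2 fold changes of the lists' genes together were -0.005, 0.004 and -0.025.

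The gene called against WT was Ncam1, a cell adhesion molecule that serves with GFRA1 as an alternative receptor for GDNF. It was at 16.5, 15.8, 14.4 and 14.4 CPM in WT, at 15.8, 14.5, 15.9 and 15.6 CPM in Irp1-/- and at 12.2, 10.7 and 10.8 CPM in Irp2-/- testes. No Irp2-/- sample reached the lowest of the other genotypes. Ncam1 fell in Irp2-/- against WT (log2 -0.44 ± 0.0913 SE, adjusted p = 0.0119) and was higher in Irp1-/- than in Irp2-/- testes (log2 0.46 ± 0.0858, adjusted p = 0.00209). The call against WT was lost without Irp2-/- replicate 2 (adjusted p = 0.0889) or 3 (adjusted p = 0.0582). Ncam1 lies 5.06 Mb from Ireb2 on chromosome 9, so linked DNA and genotype cannot be told apart, and Ncam1 is not restricted to spermatogonia.

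Among 28 other genes of undifferentiated spermatogonia, 22 were tested in Irp1-/- against Irp2-/- and 3 were called. Lhx1, a homeobox gene induced by GDNF in stem cells, was at 2.63, 2.30, 2.702 and 2.43 CPM in WT, at 1.41, 2.61, 1.30 and 2.01 CPM in Irp1-/- and at 4.01, 4.87 and 3.10 CPM in Irp2-/- testes. Every Irp2-/- sample lay above every sample of the other genotypes. Lhx1 was lower in Irp1-/- than in Irp2-/- testes (log2 -1.11 ± 0.216 SE, adjusted p = 0.00332), whereas against WT it did not pass in Irp2-/- (log2 0.67, adjusted p = 0.0618) or Irp1-/- testes (log2 -0.45, adjusted p = 0.36). Without Irp2-/- replicate 3, its lowest Irp2-/- sample, Lhx1 passed against WT (log2 0.81, adjusted p = 0.0312). In these contrasts Lhx1 and Gfra1, which act in the same GDNF pathway, had opposite signs.

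Sall4, a zinc finger factor of undifferentiated spermatogonia that partners PLZF, was at 2.24, 4.16, 2.99 and 3.43 CPM in WT, at 2.93, 2.56, 2.89 and 2.45 CPM in Irp1-/- and at 4.50, 3.49 and 4.21 CPM in Irp2-/- testes. It was lower in Irp1-/- than in Irp2-/- testes (log2 -0.58 ± 0.155 SE, adjusted p = 0.0316), a call not kept by DESeq2 (adjusted p = 0.0816). The call was also lost without Irp1-/- replicate 1, 2 or 7 or Irp2-/- replicate 1 or 3 (adjusted p of 0.0545 to 0.121). Gata2, a zinc finger factor, went the other way, at 23.7 to 26.8 CPM in Irp1-/- and 18.6 to 21.04 CPM in Irp2-/- testes, with WT between at 20.98 to 24.2 CPM (log2 0.33 ± 0.072, adjusted p = 0.00751). That call was lost without Irp2-/- replicate 2 (adjusted p = 0.0726).

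**Figure D5:**
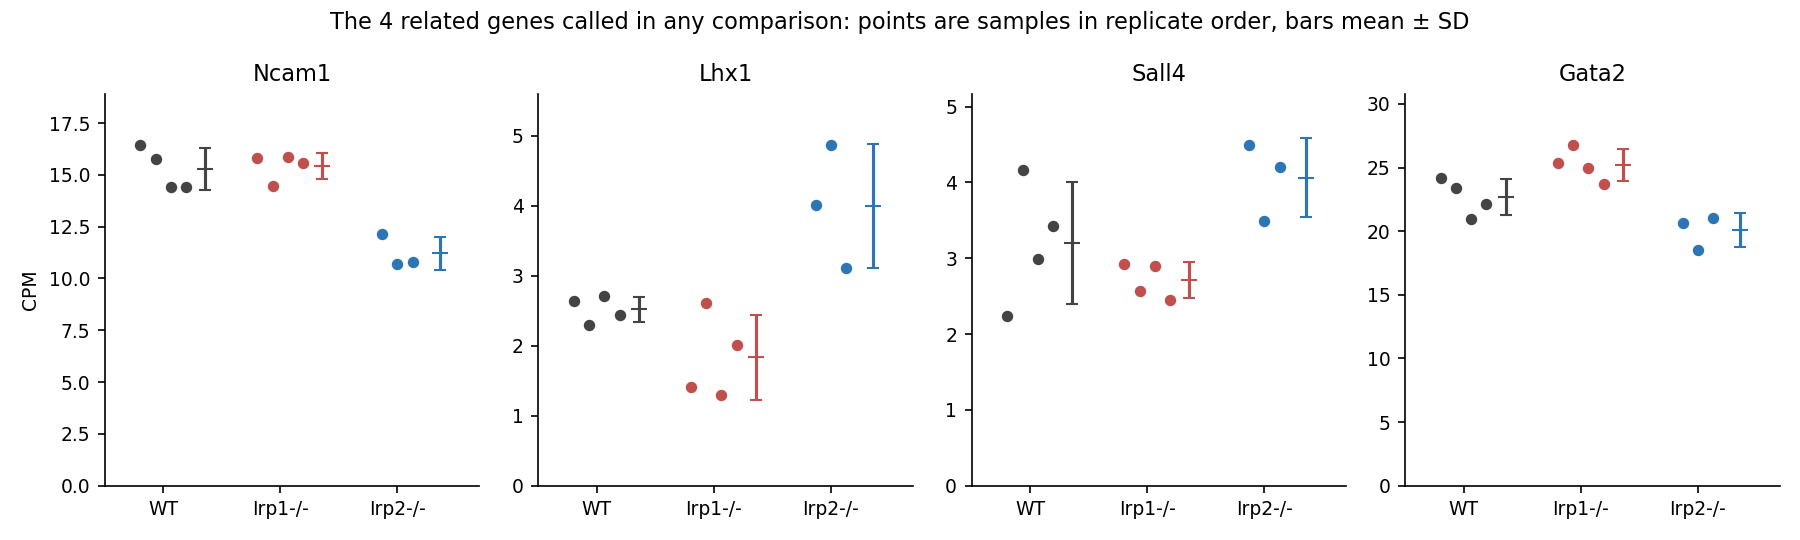
CPM in every sample of the 4 genes of the pathway lists that were called in any comparison, with bars for mean ± SD. Ncam1 was lower, and Lhx1 higher, in all 3 Irp2-/- samples than in any sample of the other genotypes.

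The 4 remaining lists held 0 calls by edgeR in each of the 3 comparisons, with 0 to 4 genes a list at an unadjusted p under 0.05. In each, the genes with the highest mean CPM are given. Of 13 niche ligands, 9 were tested, among them Kitl, the KIT ligand made by Sertoli cells (20.1 ± 2.03 CPM in WT, 23.1 ± 1.151 in Irp1-/-, 20.5 ± 2.98 in Irp2-/-), and Cxcl12, a chemokine (14.6 ± 3.32, 16.3 ± 1.48 and 13.6 ± 1.83 CPM). Kitl was higher in Irp1-/- than in WT testes before adjustment (edgeR, log2 0.20, interval 0.056 to 0.35, unadjusted p = 0.00852, adjusted p = 0.207). Of the 9 ligands 7 were positive in Irp1-/- against WT (median log2 0.123). In Irp2-/- against WT 3 were positive (median -0.044), and in Irp1-/- against Irp2-/- 8 (median 0.149). Of 14 genes of retinoic acid signalling, 13 were tested, led by the retinoic acid-producing enzymes Aldh1a1 (160 ± 36.3, 206 ± 8.60 and 186 ± 10.7 CPM) and Aldh1a2 (120 ± 2.22, 116 ± 3.602 and 118 ± 3.94 CPM). Against WT, Aldh1a1 had a log2 fold change of 0.36 in Irp1-/- (edgeR, adjusted p = 0.445) and 0.21 in Irp2-/- testes (adjusted p = 0.855).

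Of 16 other genes of differentiating spermatogonia and meiotic entry, 15 were tested, led by Dmrtb1, a relative of Dmrt1 that guides the mitosis to meiosis switch (660 ± 48.5, 666 ± 11.4 and 642 ± 37.9 CPM), and Stag3, a meiotic cohesin (489 ± 5.79, 490 ± 11.3 and 481 ± 16.3 CPM). Among 16 family relatives of the members, 14 to 15 were tested, led by Uchl3 (101 ± 3.603, 99.7 ± 2.42 and 99.5 ± 3.87 CPM) and Zbtb32 (53.7 ± 2.79, 53.2 ± 2.30 and 51.9 ± 7.23 CPM). The values are mean ± SD with n = 4, 4 and 3 in the order WT, Irp1-/-, Irp2-/-. Against WT, the log2 fold changes of these 4 lay between -0.050 and 0.013, with adjusted p of 0.89 or more.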

How the data were processed

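Testis RNA of 11 mice was analysed, grouped by the genotype in the labels. The authors deposited a table of unnormalized read counts, made from stranded polyA libraries by nf-core's RNA workflow on mm10. Which program counted the reads is not given in the sources used here. All sample columns were used. Each pair of genotypes was fitted in R 4.3.3 with edgeR 4.0.16 (TMM, filterByExpr, robust quasi-likelihood test, two-sided, Benjamini-Hochberg adjustment over all genes tested, threshold 0.05), and the script was tested on simulated data. Standard errors and 95% intervals came from the F statistic. CPM used TMM over all 11 samples, and log2 CPM a prior count of 2. DESeq2 1.42.0, other normalization and filters, a fit of all samples, a replicate block and each replicate left out in turn were alternatives. Replicates differed by more than sampling noise (chi-square per degree of freedom 1.97 to 6.75 in 15 pairs).

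Named genes were the 10 members, the called genes of each pathway list (otherwise its 2 highest by mean CPM), Aco1, Ireb2 and the 3 most like each member mean. Other genes named with the cell type markers were those called, chosen after their values were seen. The members and lists were chosen with earlier results of these data known. Lengths came from GENCODE vM21, and positions from RefSeq for GRCm38.p6. Kinds of cells were not separated, and the values describe whole testis.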

Additional observations from a re-analysis of the deposited data

Results flagged for a closer look

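Dmrt1 in Irp1-/- replicate 6 stood at 20.1 CPM, below the 23.5 to 24.2 CPM of the other 3 Irp1-/- samples, with a gap of 0.834 of the group's range. It was the 1 value so far from its group among 26 groups of 4 samples examined, and chance flags about 1 in 20 such groups. The lowest WT sample was at 20.5 CPM, and the sample is the one with the letter R in its column name.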

How the results depend on the processing

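No setting that kept all samples without a replicate block called a member. Of 360 values of member fold changes under the alternatives, 329 kept their direction and side of the threshold, 29 reversed and 2 newly passed; no reversed value was above 0.149 (log2) as reported. Samples with the same replicate number showed little common deviation (r of -0.01 to 0.078 in 7 pairs). Pairs with unlike numbers were not set beside them, so these r values do not settle what the replicate numbers mark. With them as a replicate block, Irp1-/- against WT had 1 member called (Kit, log2 0.45, adjusted p = 0.000962), 3 pathway genes and 439 genes in all, against 164 without it, Sall4 was not called (adjusted p = 0.172), and signs turned for Zbtb16 (-0.038) and Uchl1 (0.033) in Irp2-/- against WT and for Ncam1 (-0.093) in Irp1-/- against WT. Such a block compares only replicate numbers present in both genotypes. These were 1 and 2 in Irp1-/- against WT and between the knockouts, and 1 to 3 in Irp2-/- against WT. The Kit call under the block thus rests on WT replicates 1 and 2, the WT samples low in Kit. With no filter, 2 pathway genes were called in Irp2-/- against WT (Lhx1, adjusted p = 0.0347). Leaving out 1 replicate gave 0 to 1 pathway genes in Irp1-/- and in Irp2-/- against WT (1 without WT replicate 3, and 0 without Irp2-/- replicate 2), and 0 to 1 members in Irp1-/- against Irp2-/-. Over all genes it gave 55 (without Irp1-/- replicate 1) to 216 calls in Irp1-/- against WT, 118 (without Irp2-/- replicate 2) to 223 in Irp2-/- against WT (196 with all), and 414 (without Irp2-/- replicate 2) to 763 between the knockouts. Why single replicates moved these counts was not tested.

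The log2 fold changes that turned sign when 1 replicate was left out ranged, in Irp1-/- against WT, over -0.018 to 0.12 for Gfra1, -0.047 to 0.0067 for Id4, -0.12 to 0.081 for Zbtb16, -0.016 to 0.20 for Kit, -0.098 to 0.022 for Dmrt1 and -0.013 to 0.055 for Ncam1. In Irp2-/- against WT they ranged over -0.035 to 0.16 for Zbtb16, -0.028 to 0.19 for Lin28a, -0.069 to 0.033 for Uchl1, -0.076 to 0.21 for Stra8, -0.010 to 0.27 for Sohlh1 and -0.16 to 0.11 for Dmrt1. Between the knockouts they ranged over -0.16 to 0.0077 for Zbtb16, -0.10 to 0.016 for Uchl1 and -0.14 to 0.13 for Dmrt1. Without a change of sign, values also moved by over 1.5 times for Stra8 (-0.048 without WT replicate 4, and -0.18 without WT replicate 1) and Uchl1 (-0.013 without WT replicate 4, -0.023 without Irp1-/- replicate 2, -0.031 without Irp1-/- replicate 6, -0.10 without WT replicate 1 and -0.11 without Irp1-/- replicate 7) in Irp1-/- against WT, for Kit (0.16 without WT replicate 1 and 0.17 without WT replicate 2) and Id4 (0.046 without WT replicate 2) in Irp2-/- against WT, and for Stra8 (-0.038) and Lin28a (-0.16) without Irp2-/- replicate 1 and Lin28a (-0.15) without Irp1-/- replicate 1 between the knockouts. The difference between genotypes in the balance of the 2 classes moved by less than 1 WT SD under each alternative run. Depth limits Nanos3, with 3 to 12 counts per sample. It also limits Sohlh1 in WT and Irp1-/- testes, where the spread was 0.434 and 0.644 times that expected from counting error. In Irp2-/- testes the spread of Sohlh1 was 2.24 times that expected.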
